A study of Mus musculus with 8 samples.

Results

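Gm26870 and 9 other gene models annotated over satellite repeats, short sequences repeated head to tail in the genome, were followed through 8 libraries of sorted mouse eosinophils. Their 10 symbols were all found among the 54446 gene rows of the deposited tables. The group was chosen from an earlier result on these data, the Gm26870 counts of SiglecFhi/CD101+ against resident libraries, so values of that comparison are given as a description and not as a test. RNA was read by CEL-Seq, which primes on poly(A) and reads transcript ends after linear amplification, in a mouse model of asthma. All samples came from C57BL/6 mice, and the labels state no treatment, age, sex or animal, so the groups cannot be told apart from any such difference. The libraries were titled as resident (n = 4, replicates 3 to 6), Siglec-Fint/CD101- (n = 2) and SiglecFhi/CD101+ eosinophils (n = 2), the latter groups named for a sialic acid-binding lectin and an immunoglobulin-like protein of the cell surface. The deposited tables carry the letters N, R and I for these groups in that order, which the labels do not explain, so group names here are those of the titles.

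Mouse major satellite, also called gamma satellite, is a tandem repeat that fills the pericentromeric heterochromatin beside most mouse centromeres. There the methyltransferases SUV39H1 and SUV39H2 set methyl marks on histone H3 that HP1 proteins bind, and the chromatin is compact. Transcripts from both strands of the repeat are known, usually at low levels, and they become more abundant when this chromatin opens. Because copies of the repeat are nearly alike, a short read from one copy can be placed on many.

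The annotation (GENCODE M21, GRCm38) set 8 members on chromosome 9 and 2 on chromosome 2, and it called 9 of them protein-coding and 1, Gm26870, a lincRNA, so only Gm26870 carries the noncoding type that the group's working name gives to all. Gm26870 (ENSMUSG00000097312) lies on the minus strand from 3000282 to 3038313, at the assembled start of chromosome 9. The other 7 members there, Gm10715, Gm10717, Gm10718, Gm10720, Gm10721, Gm10722 and Gm17535, lie on the plus strand between 3000922 and 3038316, so they run through Gm26870 in the opposite direction. Exons of 4 of them overlap Gm26870 exons, by 155 bases in Gm10718 and by 275 to 299 bases in Gm10721, Gm17535 and Gm10715. Gm10801 (plus strand, 98662237 to 98664083) and Gm10800 (minus strand, 98666547 to 98667301) lie far inside chromosome 2 and not at its start.

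All 10 gene models share the same repeat. Shifted against itself by 234 bases, the longest Gm26870 transcript matched at 81.5% of positions, against a median of 30.6% over shifts of 1 to 400 bases. The 7 other chromosome 9 members also matched best at 234 bases, with 61.7% to 67.6% identity. Gm10800 and Gm10801 matched best at 225 and 231 bases, with 56.3% and 52.7%. Of 40651 genes with a transcript of at least 468 bases, 12 passed 60% identity at a shift of 234 bases, and 8 of these were members. Below are 2 successive repeat units of Gm26870, both inside 1 exon (minus strand; chr9:3038080-3038313 and chr9:3037846-3038079), and the closest unit of each chromosome 2 member, shown because these are the genes with counts that the results turn on. The chromosome 2 units are printed as the reverse complement of their annotated transcripts. Capitals mark bases that differ from, or have no partner in, the first Gm26870 unit.
Gm26870, the first unit: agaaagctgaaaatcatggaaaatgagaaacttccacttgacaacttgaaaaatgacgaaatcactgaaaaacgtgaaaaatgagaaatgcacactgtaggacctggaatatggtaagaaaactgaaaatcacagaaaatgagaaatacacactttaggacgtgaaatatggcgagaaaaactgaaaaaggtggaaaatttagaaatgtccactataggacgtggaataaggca
Gm26870, the second unit: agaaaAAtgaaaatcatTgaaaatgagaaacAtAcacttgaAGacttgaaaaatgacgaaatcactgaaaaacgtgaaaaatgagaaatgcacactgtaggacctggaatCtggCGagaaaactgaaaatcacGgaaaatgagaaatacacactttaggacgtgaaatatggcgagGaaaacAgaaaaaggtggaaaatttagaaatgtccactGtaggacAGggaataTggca
Gm10800, reverse complement: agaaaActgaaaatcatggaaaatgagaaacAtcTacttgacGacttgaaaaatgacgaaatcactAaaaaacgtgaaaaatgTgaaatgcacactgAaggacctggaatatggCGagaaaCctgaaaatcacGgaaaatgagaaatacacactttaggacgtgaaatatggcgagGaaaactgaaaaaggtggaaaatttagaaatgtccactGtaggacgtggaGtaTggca
Gm10801, reverse complement: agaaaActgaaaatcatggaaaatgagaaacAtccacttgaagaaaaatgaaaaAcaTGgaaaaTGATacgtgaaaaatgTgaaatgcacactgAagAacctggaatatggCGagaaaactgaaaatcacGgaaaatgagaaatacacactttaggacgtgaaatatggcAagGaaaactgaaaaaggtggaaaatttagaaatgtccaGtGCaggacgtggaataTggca
The second Gm26870 unit had the same base as the first at 217 of 234 positions (92.7%), and the Gm10800 unit at 219 of 234 (93.6%). The Gm10801 unit matched at 210 of 238 aligned columns (88.2%), and 11 columns were gaps. The Gm10800 unit on chromosome 2 was thus about as close to the first Gm26870 unit as the next copy of the same gene was.

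**Figure D1:**
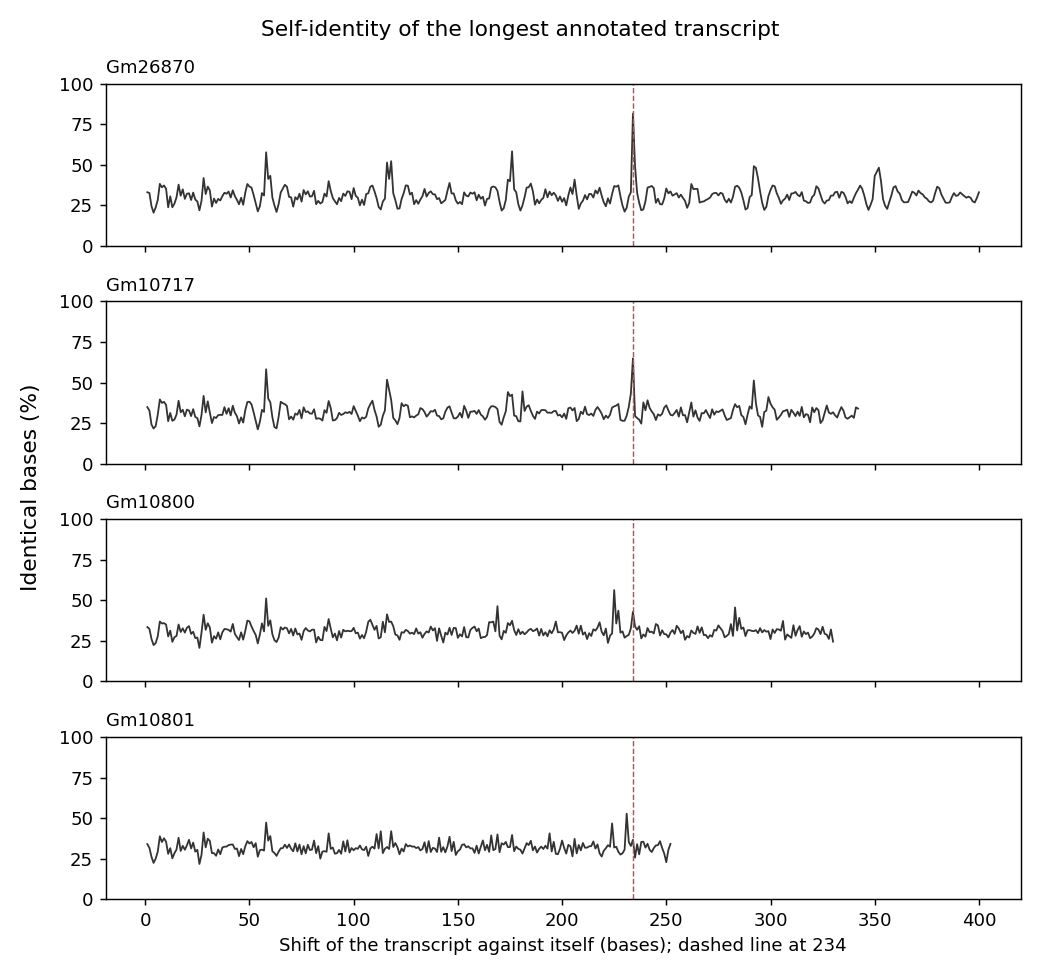
Identity of the longest annotated transcript of 4 members with itself (vertical axis, percent of bases) at each shift in bases (horizontal axis, up to 400 or the transcript's midpoint). Gm26870 and Gm10717 peak at the dashed line at 234 bases, with 81.5% and 64.9%, while Gm10800 and Gm10801 peak at 225 and 231 bases.

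The strand sets Gm26870 apart from the other members. Its transcript reads the A-rich strand of the repeat, with 45.8% A and 18.0% T and a longest run of 6 A. The other 9 members read the opposite, T-rich strand, with 17.1% to 18.3% A, 45.8% to 47.5% T and no run of more than 3 A. GC content was 34.3% to 36.2% in the 10 members, against a median of 47.1% over 54409 genes.

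Much of each member can be read in another gene model. Cut into words of 25 bases on either strand, 80.0% of the distinct words in Gm26870 transcripts also occurred in transcripts of another gene, and 67.4% occurred in another member. Among the members the share in any other gene was highest in Gm10720 (95.3%) and Gm17535 (94.6%) and lowest in Gm10800 (47.8%) and Gm10801 (44.5%). In all, 3 genes outside the members held at least 20% of their words in member transcripts. They were the chromosome 9 neighbours Gm10719 (77.9%) and Gm11168 (71.2%), and Gm21738 on chromosome 14 (50.1%). These shares count annotated transcripts, and repeat copies elsewhere in the genome were not searched. How reads with several placements were counted is not given in the sources used here, so a count below belongs to the repeat and the named gene is the place where the authors' counting put it.

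**Figure D2:**
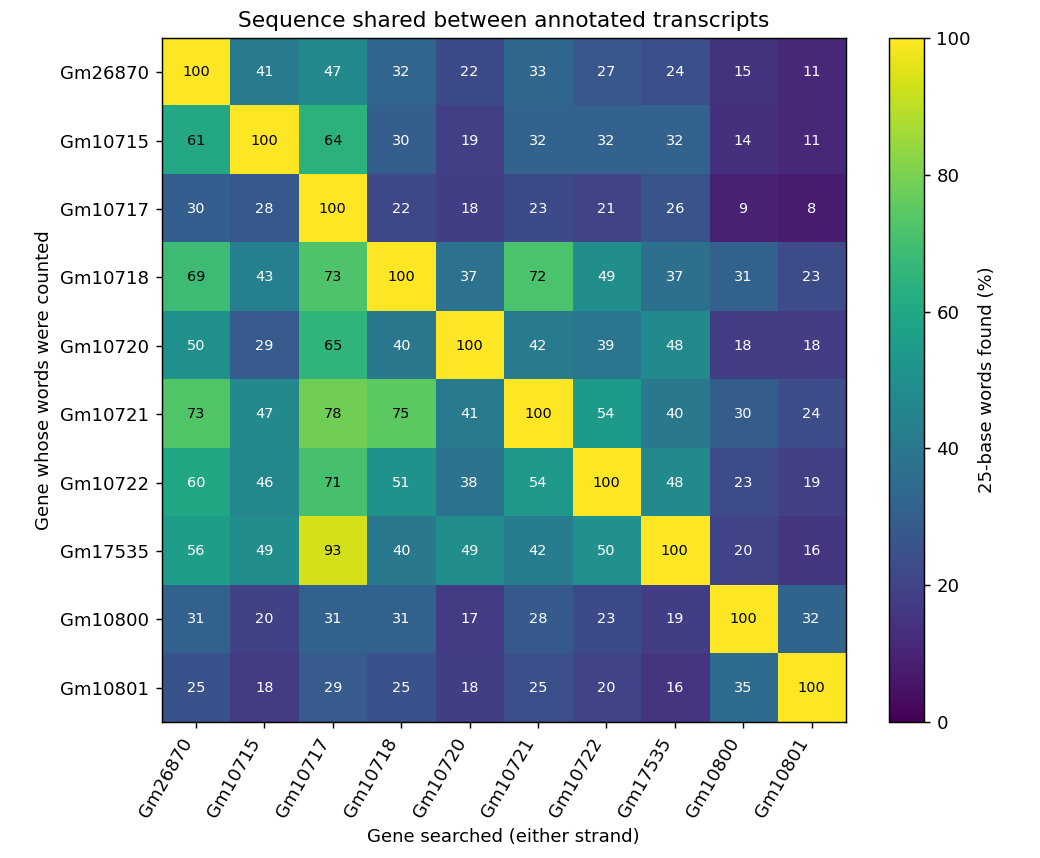
Percent of the distinct 25-base words of each gene (rows) that occur in each other gene (columns), on either strand. Words of the chromosome 9 members recur most in each other, and 93% of the words of Gm17535 occur in Gm10717.

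Gm26870 held nearly all counts of the group. Over 8 libraries the 10 members had 19261 counts, of which 18875 (98.0%) were on Gm26870, 267 on Gm10800 and 100 on Gm10801. The 7 plus-strand members of chromosome 9 had 19 counts together, and 15 of these were in SiglecFhi/CD101+ replicate 2. They were 13 counts for Gm10717, 3 for Gm10715, and 1 each for Gm10718, Gm10720 and Gm10722, while Gm10721 and Gm17535 had none, which allows up to 3 counts a library (0.199 to 0.501 CPM in resident and 1.59 to 2.18 CPM in the other libraries). The neighbours Gm11168 and Gm10719, also on the plus strand, had 71 and 25 counts. Of all counts on the 10 genes of the chromosome 9 repeat, genes other than Gm26870 took 0.196% to 0.618% in resident libraries. They took 1.90% and 0.984% in Siglec-Fint/CD101- replicates 1 and 2, against 0.113% and 0.719% in those of SiglecFhi/CD101+. Both Siglec-Fint/CD101- values, from 9 and 6 counts, lay above those of all other libraries, while the other groups overlapped. These shares divide by totals that are nearly all Gm26870 counts, which chose the group. Low shares in SiglecFhi/CD101+ libraries can follow from that choice and are no support. Library totals ran from 5600610 to 11583550 counts in resident and from 1513517 to 3109428 in the other libraries.

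Gm26870, the minus-strand lincRNA model, had 518, 643, 1017 and 363 counts in resident replicates 3 to 6, which are 86.6, 50.5, 71.3 and 24.1 CPM (counts per 1000000 counts, scaled by TMM-adjusted library sizes). In Siglec-Fint/CD101- replicates 1 and 2 it had 465 and 604 counts, or 338 and 375 CPM. In SiglecFhi/CD101+ replicates 1 and 2 it had 3524 and 11741 counts, or 1868 and 7160 CPM. The 3 groups did not overlap, with resident lowest and SiglecFhi/CD101+ highest. The 2 Siglec-Fint/CD101- libraries lay close together, while the 2 SiglecFhi/CD101+ libraries lay far apart. Group means were 58.1 ± 27.0 CPM (SD, n = 4), 357 ± 26.1 CPM (n = 2) and 4514 ± 3742 CPM (n = 2).

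By its count, Gm26870 ranked 1 among the 9214 genes detected outside the mitochondrial genome in SiglecFhi/CD101+ replicate 2, where it took 2.64% of those counts. It ranked 9 of 10805 in SiglecFhi/CD101+ replicate 1, with 0.638%. In Siglec-Fint/CD101- libraries it ranked 139 and 96, with 0.102% and 0.125%. In resident libraries it ranked from 634 to 2588, with 0.00685% to 0.0242%. The order of the groups was therefore the same by rank, by share and by CPM.

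The share of all counts on the 10 members together was 0.00957%, 0.00580%, 0.0136% and 0.00377% in resident replicates 3 to 6. It was 0.0322% and 0.0210% in Siglec-Fint/CD101- replicates 1 and 2. It was 0.117% (exact 95% binomial interval 0.113% to 0.121%) and 0.783% (0.769% to 0.798%) in SiglecFhi/CD101+ replicates 1 and 2. These intervals and the floor of 3 counts cover counting error only. The spread between libraries of a group was far wider than the intervals.

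Gm10800, on the minus strand of chromosome 2, had 12, 24, 9 and 25 counts in resident replicates 3 to 6, or 2.01, 1.89, 0.631 and 1.66 CPM. It had 23 and 18 counts (16.7 and 11.2 CPM) in Siglec-Fint/CD101- and 69 and 87 counts (36.6 and 53.1 CPM) in SiglecFhi/CD101+ replicates 1 and 2. The groups stood in the same order as for Gm26870 and did not overlap.

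Gm10801, its neighbour on chromosome 2, had 5, 5, 2 and 28 counts in resident replicates 3 to 6, or 0.836, 0.393, 0.140 and 1.86 CPM. It had 0 and 5 counts (0 and 3.10 CPM) in Siglec-Fint/CD101- and 42 and 13 counts (22.3 and 7.93 CPM) in SiglecFhi/CD101+ replicates 1 and 2. SiglecFhi/CD101+ libraries were above all others, and the other groups overlapped.

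Gm11168, the neighbour on chromosome 9 with 71.2% of its words in the members, had 2, 3, 1 and 1 counts in resident replicates 3 to 6. It had 8 and 6 counts in Siglec-Fint/CD101- replicates 1 and 2, and 4 and 46 counts in SiglecFhi/CD101+ replicates 1 and 2. Its resident values (0.0665 to 0.334 CPM) were below all others, while the SiglecFhi/CD101+ values (2.12 and 28.1 CPM) lay on both sides of the Siglec-Fint/CD101- values (5.82 and 3.73 CPM). Gm10719 had 24 of its 25 counts in SiglecFhi/CD101+ replicate 2. 4930433N12Rik, the other counted gene within 100 kb, had 9 counts, 7 of them in resident replicate 5.

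**Figure D3:**
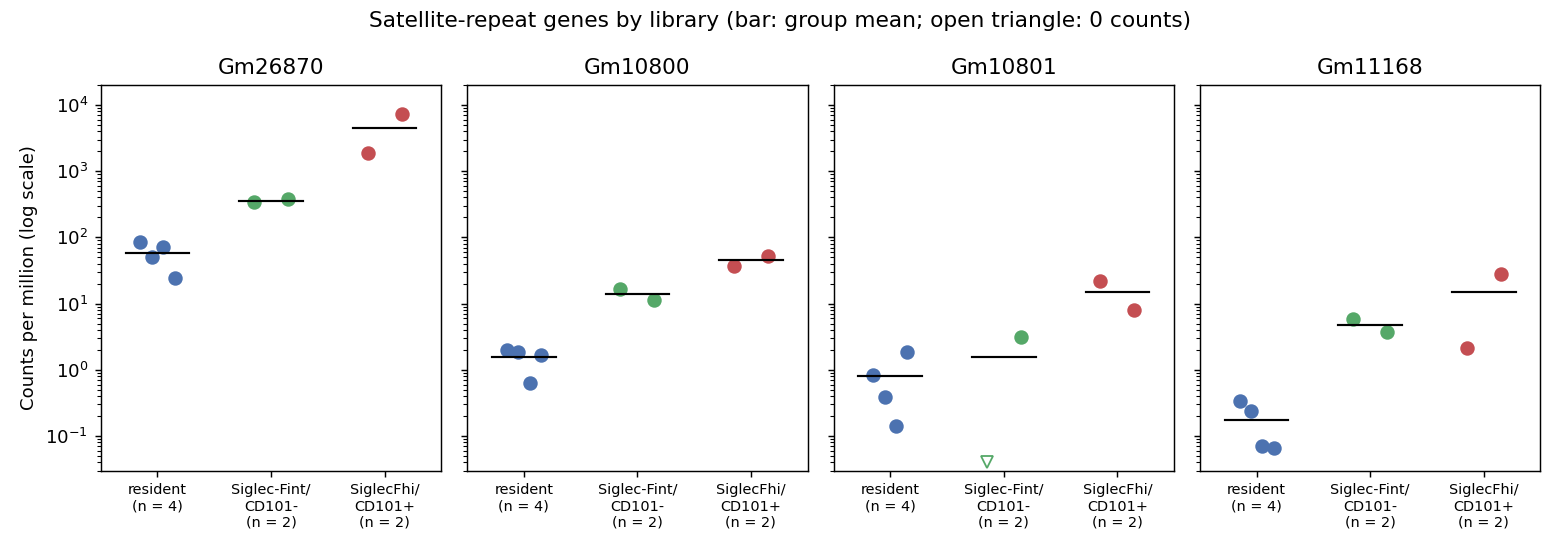
CPM on a log axis for the 3 members that could be tested and the neighbour Gm11168, 1 point per library, with a bar at each group mean and an open triangle for 0 counts. For Gm26870 the resident libraries sit between 24.1 and 86.6 CPM, the Siglec-Fint/CD101- libraries at 338 and 375 CPM and the SiglecFhi/CD101+ libraries at 1868 and 7160 CPM.

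Per kilobase of annotated exon, Gm26870 was at 21.6 ± 10.05 CPM in resident (SD, n = 4), 132 ± 9.70 CPM in Siglec-Fint/CD101- (n = 2) and 1677 ± 1390 CPM in SiglecFhi/CD101+ libraries (n = 2). On the same scale Gm10800 was at 2.34 ± 0.949, 21.1 ± 5.94 and 67.9 ± 17.7 CPM. The proportion of chromosome 2 to chromosome 9 counts varied between libraries. For each 1000 Gm26870 counts there were 19.6 Gm10800 counts (exact 95% interval 15.2 to 24.8) in SiglecFhi/CD101+ replicate 1 and 7.41 (5.93 to 9.15) in replicate 2, with intervals that cover counting error only. The same ratio ran from 8.85 to 68.9 in resident libraries and was 49.5 and 29.8 in Siglec-Fint/CD101- libraries. The lower ratios of the subsets were in SiglecFhi/CD101+, and the resident range overlapped both. The interval of Siglec-Fint/CD101- replicate 2 (17.5 to 47.5) overlapped that of SiglecFhi/CD101+ replicate 1. The ratio divides by the Gm26870 counts that chose the group, so low ratios in SiglecFhi/CD101+ libraries can follow from that choice and are no support.

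Of the 10 members, 3 passed the filter on low counts (Gm26870, Gm10800 and Gm10801) and 7 did not. The filter asked for 2.30 unscaled CPM in at least 2 libraries, which Gm26870 reached in 8. Gm10800 reached it in the 4 subset libraries and in no resident library, and Gm10801 in both SiglecFhi/CD101+ libraries and 1 resident library. These members thus passed through the groups where they were high. Calls of them as higher than in the other groups, and their counts of non-overlap, are no support. In the comparison that chose the group, SiglecFhi/CD101+ against resident, Gm26870 had a log2 fold change of 6.28 ± 0.55 (SE), and 4.91 without SiglecFhi/CD101+ replicate 2. Gm10800 and Gm10801 had 4.85 ± 1.19 and 4.19 ± 1.66 (3.18 to 5.13 for Gm10801 with 1 library left out). With edgeR (quasi-likelihood fit, Benjamini-Hochberg adjusted p under 0.05), 1 of the 3, Gm26870, was called higher, where 0.0254% of the 11828 tested genes were called higher and 0% lower. Nothing is read from that call, since the same counts chose the group. All 3 had groups that did not overlap, as did 6.78% of tested genes in that direction. Over the tested genes the log2 fold changes had a median of -0.72.

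Siglec-Fint/CD101- against resident libraries was not the comparison that chose the group. It reuses the resident libraries of that comparison, whose Gm26870 counts were part of the choice, so its p-values are not independent of it. Gm26870 had a log2 fold change of 2.62 ± 0.50 (SE), a 6.13-fold difference against an all-gene median of -0.997, and both Siglec-Fint/CD101- libraries lay above all 4 resident libraries. It did not pass edgeR's quasi-likelihood test over all genes (adjusted p = 0.103). Over the alternative settings the adjusted p ran from 2.93e-09 without a filter on low counts to 0.53 with limma-voom, and DESeq2 (0.0123) and RLE normalization (0.0491) put it past the threshold. Gm10800 had 3.16 ± 1.15 (adjusted p = 0.288). Gm10801 had 0.95 ± 1.73, with an approximate 95% interval of -2.44 to 4.34 (adjusted p = 0.81), and its sign changed to -0.21 with library totals alone and to -5.65 without Siglec-Fint/CD101- replicate 2.

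In this comparison 0 members were called, where 0.0338% of tested genes were called higher and 0.0254% lower. At an unadjusted p under 0.05, 2 members were higher (Gm26870 and Gm10800), as were 1.9% of tested genes, while 13.8% were lower. DESeq2 called 2 members higher, beside 1.03% of the genes it gave an adjusted p, and limma-voom called 0, beside 0.0169%. Groups did not overlap for 2 members, Gm26870 and Gm10800, and for 4.46% of tested genes in that direction. Gm10800 passed the filter only through the subset libraries, where it was high, so its place in the counts of this paragraph is no support. Gm11168 had a log2 fold change of 4.69 ± 1.61, from 7 counts over resident and 14 over Siglec-Fint/CD101- libraries (adjusted p = 0.288).

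SiglecFhi/CD101+ against Siglec-Fint/CD101- reuses the SiglecFhi/CD101+ libraries whose Gm26870 counts chose the group, so its p-values are not independent of that choice. In it Gm26870 had a log2 fold change of 3.66 ± 0.66 (SE), a 12.7-fold difference against an all-gene median of 0 (adjusted p = 0.106 by edgeR's quasi-likelihood test, and from 3.06e-10 to 0.765 over the alternative settings). Without SiglecFhi/CD101+ replicate 2 it was 2.32, and without replicate 1 it was 4.27. Gm10801 had 3.25 ± 2.15 (approximate 95% interval -0.97 to 7.46) and Gm10800 1.68 ± 1.39 (-1.04 to 4.41), with adjusted p of 0.419 and 0.538. The test called 0 members, where 0.00845% of tested genes were called higher and 0% lower. At an unadjusted p under 0.05, 1 member was higher, as were 9.98% of tested genes, and 7.96% were lower. DESeq2 called 1 member higher, Gm26870, beside 7.8% of its genes, and limma-voom 0, beside 0%. Groups did not overlap for the 3 tested members, of which Gm10801 passed the filter through SiglecFhi/CD101+ libraries, and for 15.8% of tested genes in that direction.

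**Figure D4:**
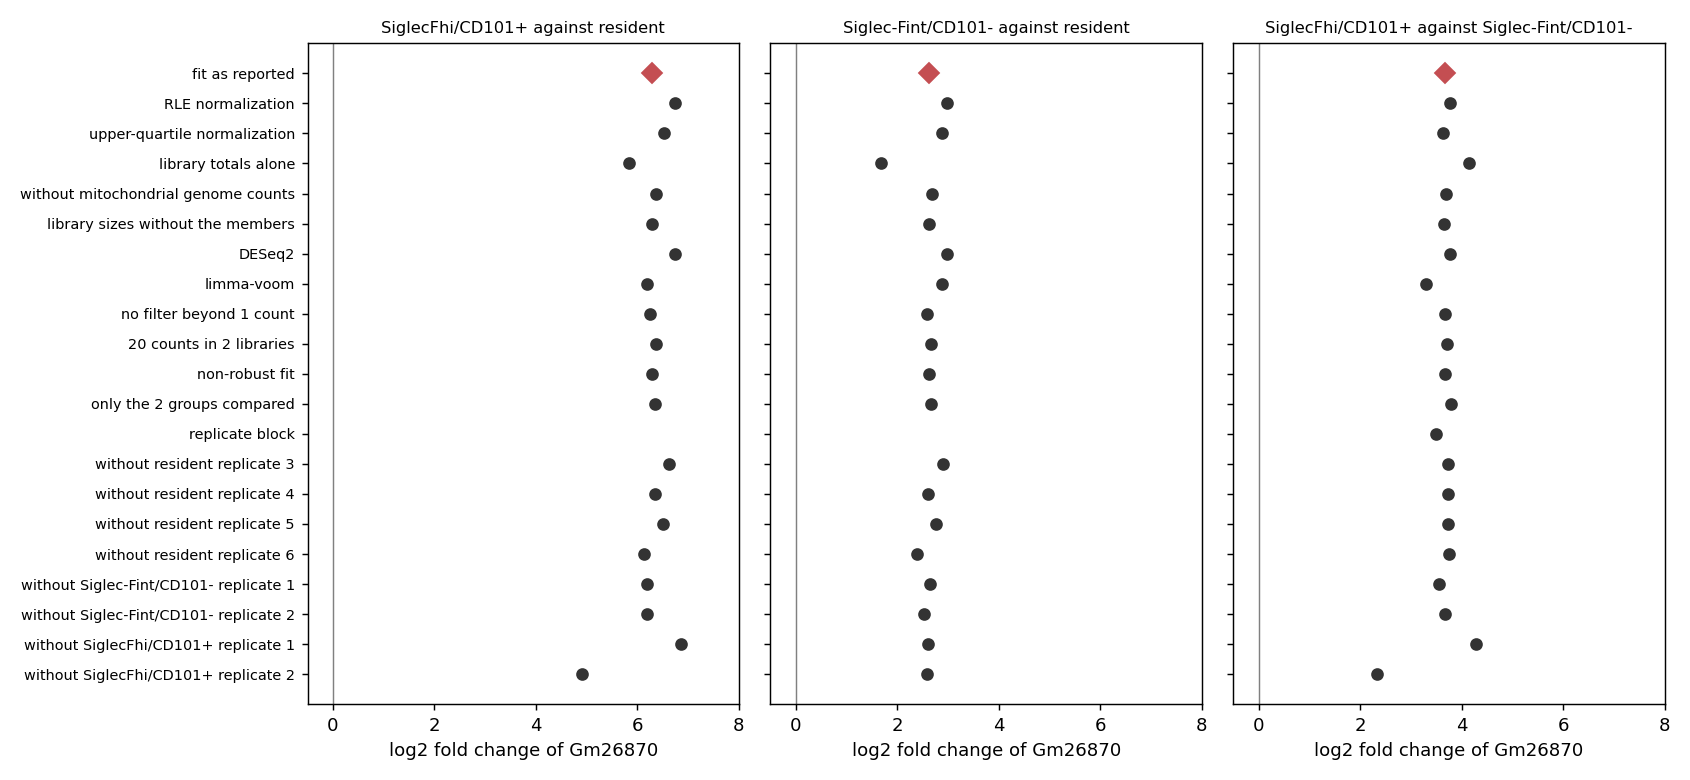
Log2 fold change of Gm26870 (horizontal axis) in the 3 comparisons under each processing setting (rows), with a red diamond for the fit as reported and black points for alternatives. Every value lies above 0, and leaving out SiglecFhi/CD101+ replicate 2 gives 4.91 against resident and 2.32 against Siglec-Fint/CD101- libraries.

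Other measures of the libraries moved with the groups too. The share of counts on mitochondrial genes was 38.6% to 61.8% for resident libraries, against 69.9% and 83.9% for Siglec-Fint/CD101- and 82.2% and 70.6% for SiglecFhi/CD101+ replicates 1 and 2. With those genes left out, the log2 fold changes of Gm26870 were 6.37, 2.68 and 3.70 in the 3 comparisons. Replicate 2 had the higher Gm26870 level in both subsets, with the lower mitochondrial share of its pair in SiglecFhi/CD101+ and the higher in Siglec-Fint/CD101-. The part of depth and mitochondrial share in these differences was not tested beyond these values.

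In bulk libraries fewer cells of a type and less RNA per cell cannot be told apart. Summed over 10 eosinophil markers, levels were at 184 to 429 CPM in resident, 164 and 295 CPM in Siglec-Fint/CD101- and 148 and 449 CPM in SiglecFhi/CD101+ libraries. Prg3 had 0 counts in all groups, Epx and Il5ra had none in either subset, and Siglecf had none in Siglec-Fint/CD101- libraries, against its place in that group's name. Epx and Il5ra were at 0.438 and 0.989 CPM in resident libraries, below the floor of 1.59 to 2.18 CPM in the subsets. That floor is for a single library, and 0 counts over all subset libraries together allow less. Other markers were present. Prg2, a granule protein, was at 8.55 ± 5.07, 1.29 ± 0.803 and 137 ± 139 CPM in resident, Siglec-Fint/CD101- and SiglecFhi/CD101+ libraries. Ear2, an eosinophil ribonuclease, was at 213 ± 68.3, 123 ± 42.5 and 83.1 ± 51.5 CPM, and Siglecf had 63 counts in SiglecFhi/CD101+ libraries (18.5 ± 11.9 CPM). Summed macrophage markers were at 688 to 1199 CPM in resident, 1758 to 5129 CPM in Siglec-Fint/CD101- and 1934 to 2278 CPM in SiglecFhi/CD101+ libraries, with at least 5 of 7 detected in each. Markers of B and plasma cells ran from 32.8 to 147 CPM in resident libraries and from 165 to 351 CPM in the subsets, with at least 4 of 6 detected. For both sums every subset library lay above every resident library. The macrophage sum was mostly Chil3, at 604 ± 109, 2994 ± 2064 and 1949 ± 275 CPM, while Mrc1 (38.3 ± 13.02, 21.3 ± 3.79 and 0.835 ± 0.319 CPM) had its highest mean in resident libraries. In SiglecFhi/CD101+ against resident libraries 3 of 7 macrophage markers had a log2 fold change above 0, beside 36.1% of tested genes. Their median was -0.50, beside -0.72 over all tested genes. In Siglec-Fint/CD101- against resident libraries it was 4 of 7, beside 33%, with a median of 0.30 beside -0.997. EdgeR called 0 of the 7 in the former and 1 higher in the latter, where 0.0338% of tested genes were called higher, and limma-voom called 0 in both. Neutrophil markers ran from 111 to 479 CPM in resident, 593 to 1521 CPM in Siglec-Fint/CD101- and 285 to 1093 CPM in SiglecFhi/CD101+ libraries. T and NK cell markers ran from 12.7 to 27.3, from 41.0 to 137 and from 19.5 to 71.0 CPM. Both sums were above all resident libraries in Siglec-Fint/CD101- and overlapped resident in SiglecFhi/CD101+ libraries. Retnlg led the neutrophil sum, while Cxcr2 had 0 counts in Siglec-Fint/CD101- libraries. Trac led the T and NK cell sum in both subsets, while Nkg7 had its highest mean in resident libraries. Cd79a led the B and plasma cell sum in SiglecFhi/CD101+ libraries, where 4 of 6 such markers, but not Cd79b and Ms4a1, were above resident. In Siglec-Fint/CD101- against resident libraries, 3 of 4 tested neutrophil and 3 of 4 tested T and NK cell markers had a log2 fold change above 0, beside 33% of all tested genes. Summed dendritic cell, epithelial, and endothelial and fibroblast markers overlapped between resident and subset libraries. The part of other cells in the repeat counts was not tested.

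Heterochromatin genes, sensors of nucleic acid, and other noncoding and ribosomal RNA-derived genes were read as 3 lists against the same background of all tested genes. Without adjustment of p, 3.65% of tested genes were higher and 13.1% lower in SiglecFhi/CD101+ against resident, 1.9% and 13.8% in Siglec-Fint/CD101- against resident, and 9.98% and 7.96% between the subsets. DESeq2 called 3.05% higher and 5.81% lower, 1.03% and 5.62%, and 7.8% and 6.1% of genes with an adjusted p in the same order. Limma-voom called 0.0169%, 0.0169% and 0% higher and 0% lower.

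Of 38 heterochromatin genes, which include enzymes that set its marks, proteins that bind them and demethylases that remove them, 35 could be tested. None was called in any comparison by edgeR. Without adjustment, 0 were higher and 3 lower in SiglecFhi/CD101+ against resident libraries, 0 and 8 in Siglec-Fint/CD101- against resident libraries, and 5 and 3 between the subsets. DESeq2 called 1 lower in each comparison with resident libraries and 3 higher and 2 lower between the subsets, and limma-voom called 0. The list's medians (-0.86, -1.35 and 0.66) stood beside all-gene medians of -0.72, -0.997 and 0. Suv39h1, which encodes a histone H3 lysine methyltransferase of pericentromeric chromatin, was at 15.8 ± 19.6 CPM in resident, 65.8 ± 93.1 CPM in Siglec-Fint/CD101- and 0.265 ± 0.375 CPM in SiglecFhi/CD101+ libraries. Setdb1, another histone H3 lysine methyltransferase, was at 5.73 ± 4.31 and 1.45 ± 2.06 CPM in the resident and Siglec-Fint/CD101- groups and had 0 counts in SiglecFhi/CD101+ libraries. Kdm4a, a demethylase of the same mark, was at 6.83 ± 4.75 CPM in resident libraries, had 0 counts in Siglec-Fint/CD101- libraries and was at 15.7 ± 1.15 CPM in the SiglecFhi/CD101+ pair. Mbd1, which binds methylated DNA, was at 7.40 ± 4.87, 0.364 ± 0.514 and 32.3 ± 44.9 CPM in the 3 groups. The named genes thus stood in different orders across the groups.

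A list of 22 sensors and enzymes of foreign or misplaced nucleic acid had 19 tested genes and 0 calls by edgeR in each comparison. Without adjustment of p the 3 comparisons, in the order above, had 0, 1 and 5 higher and 2, 6 and 2 lower. DESeq2 called 0, then 3 lower, then 5 higher and 1 lower, and limma-voom called 0. The medians were 0.05, -0.36 and 0.995. Ddx58, which encodes the RNA sensor RIG-I, was at 3.53 ± 2.23 CPM in resident libraries, at 14.3 ± 19.2 CPM in Siglec-Fint/CD101- libraries, and had 0 counts in SiglecFhi/CD101+ libraries. Irf3, a transcription factor downstream of these sensors, was at 25.2 ± 20.2, 0.310 ± 0.439 and 14.4 ± 2.19 CPM. Tlr7, a sensor of single-stranded RNA in endosomes, was at 0.339 ± 0.420, 33.8 ± 47.8 and 4.27 ± 6.04 CPM.

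Other long noncoding and ribosomal RNA-derived genes, in a list that also holds the protein-coding Cdk8 and Lars2, were set beside Gm26870. Of 28 in the list, 19 were tested and 0 were called in each comparison by edgeR. Unadjusted, 0 were higher and 4 lower in SiglecFhi/CD101+ against resident. In Siglec-Fint/CD101- against resident 2 were higher (Gm42418 and Cdk8) and 1 lower, and between the subsets 1 was higher (Meg3) and 1 lower. DESeq2 called 2 lower in the first of these and 0 in the others, and limma-voom called 0. Their medians were -0.21, -0.33 and -0.28. Gm42418, a gene model over ribosomal RNA sequence, was at 3724 ± 1542 CPM in resident, 8964 ± 1252 CPM in Siglec-Fint/CD101- and 4434 ± 3278 CPM in SiglecFhi/CD101+ libraries. Gm26917, another such model, was at 287 ± 192, 226 ± 53.2 and 47.6 ± 11.1 CPM. Neat1, the RNA that scaffolds nuclear paraspeckles, was at 59.6 ± 23.0, 11.8 ± 5.32 and 9.73 ± 1.76 CPM. Gm26917 and Neat1 thus had their lowest mean in SiglecFhi/CD101+ libraries, where Gm26870 had its highest. Meg3 also had its highest mean there (15.007 CPM), against 0.787 CPM in resident and 0 counts in Siglec-Fint/CD101- libraries. Cdk8 and Lars2 had higher means there than in resident libraries, but lower than in Siglec-Fint/CD101- libraries. For SiglecFhi/CD101+ libraries, 7 of 19 tested genes of the list had a log2 fold change above 0 against resident, beside 36.1% of all tested genes. Against Siglec-Fint/CD101- it was 8 of 19, beside 49.3%.

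The 5 tested genes whose log2 CPM most resembled that of Gm26870, with members, neighbours and sequence relatives left aside, were Gm26624 (Pearson's r = 0.96), Gm12132 (0.95), Mme (0.94), Fign (0.94) and Tenm3 (0.94). The 8 libraries behind each r share their depth and group, so these are descriptions. Gm26624, a lincRNA on chromosome 4, had 1 to 11 counts in resident libraries, 10 and 5 counts in the Siglec-Fint/CD101- pair and 15 and 64 counts in the SiglecFhi/CD101+ pair. Mme, which encodes the surface peptidase neprilysin, was at 1.46 to 13.04 CPM in resident, 9.45 and 21.1 CPM in Siglec-Fint/CD101- and 46.7 and 68.3 CPM in SiglecFhi/CD101+ libraries. On the same measure Gm10800 had an r of 0.93 with Gm26870, Gm11168 0.90 and Gm10801 0.66.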

How the data were processed

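For each library the authors deposited whole-number counts per Ensembl gene, not normalized to judge by their unequal totals. Tools named in the submitters' processing notes were TopHat2 2.1.0 and Bowtie2 2.2.6, HTSeq 0.6.1, FastQC 0.11.5, Trim Galore, cutadapt 1.10 and DESeq2 1.28.0, with no roles given. Not given in the sources used here were the build, the annotation, the strand setting and the treatment of multiply placed reads and of molecular identifiers. With identical repeats these settings decide which gene a read is counted for, or whether it is counted.

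Of 54446 gene rows, 54409 matched a symbol in GENCODE M21 (GRCm38), also the source of positions and transcript sequences. Groups came from sample titles. Counts were fitted across all genes in R 4.3.3 with edgeR 4.0.16 (TMM, filterByExpr, group means over 8 libraries, robust quasi-likelihood, two-sided, Benjamini-Hochberg adjusted p under 0.05), which kept 11828 genes. SE is the absolute log2 fold change over the square root of F, and approximate intervals are 1.96 SE wide on each side. Alternatives were DESeq2 1.42.0, limma-voom (limma 3.58.1), other scalings, filters and sample sets. Words elsewhere were searched in transcripts, not the genome, since no genome sequence was used here. Replicates of a group may be technical, so p-values measure the spread between these samples. Fits and the repeat search were tested on simulated data.

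Members and lists were chosen with earlier results of these data known. Named genes are the 10 members, counted genes within 100 kb of a member, up to 4 genes per list with the smallest p, and the 5 genes most correlated with Gm26870 (log2 CPM, prior count 2).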

Additional observations from a re-analysis of the deposited data

How the results depend on the processing

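The log2 fold change of Gm26870 stayed above 0 under each setting tried in the 3 comparisons. With 1 library left out it ran from 4.91 to 6.87 in SiglecFhi/CD101+ against resident, from 2.39 to 2.89 in Siglec-Fint/CD101- against resident (adjusted p from 0.0595 to 0.26) and from 2.32 to 4.27 between the subsets (0.0559 to 0.271). In Siglec-Fint/CD101- against resident it passed the threshold with RLE normalization (2.97), DESeq2 (2.97) and no filter on low counts (2.57), which then called 1, 2 and 1 members in place of 0. Between the subsets it passed with DESeq2 (3.77), no filter (3.67) and a replicate block (3.50), each calling 1 member in place of 0. Members called in SiglecFhi/CD101+ against resident, the comparison that chose the group, were 3 with DESeq2 and 1 to 2 with 1 library left out. Members called in the other comparisons stayed at 0 with any 1 library left out. DESeq2 called 3.05%, 1.03% and 7.8% of its genes higher in the 3 comparisons. For the other settings in this paragraph no share of all genes is given, so nothing is read from their counts of members. The cause of these changes was not tested. Deviations of same-numbered subset libraries from their group means had a correlation of 0.00665 across genes. Each subset gives only 1 difference between its libraries, so this value cannot show whether the numbers pair them. The replicate block was fitted on the 4 subset libraries alone.

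The log2 fold change of Gm10801 in Siglec-Fint/CD101- against resident reversed to -0.21 with library totals alone, and ran from -5.65 to 1.86 with 1 library left out. The mean share of counts on the 10 members was 0.00818%, 0.0266% and 0.450% in the 3 groups, and 0.0171%, 0.119% and 1.66% of counts outside the mitochondrial genome. With 1 library left out the shares of all counts ran from 0.00638% to 0.00964% in resident, 0.0210% to 0.0322% in Siglec-Fint/CD101- and 0.117% to 0.783% in SiglecFhi/CD101+ libraries. Of Gm26870 words, 72.1% of 36 bases and 67.0% of 50 bases occurred in another gene. The number of sequence relatives was 3 at either threshold, and 7 members had too few counts for a test.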
